A study of Mus musculus with 4 samples.

Results

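The genes described here are those of the colony-stimulating factor (CSF) system of macrophages together with a pair of genes that mark the cell type: Csf1, Csf1r, Csf2ra, Csf2rb, Csf2rb2, Csf3r, Adgre1 and Lyz2. They are 8 of 7577 genes with a probe set of their own on these arrays. They were found as every probe set that the array's annotation assigns to any of them. The annotation lists 16 such probe sets, and 15 of them had values, out of 10649 probe sets with values in all. Of the 15, 13 were assigned to 1 gene and 2 were shared, 1 between Csf2rb and Csf2rb2 and 1 between Lyz1 and Lyz2. A further Csf2rb2 probe set (161544_r_at) was blank on every array. A filter at the 40th percentile of mean signal, which kept 6389 probe sets, kept 13 of the 15. It left out a second probe set of Adgre1 and of Lyz2.

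The samples were macrophages from mice labelled PPARg WT (WT) and PPARg KO (KO), on a background of 129/SV mixed with C57BL/6. PPARγ, the product of Pparg, is a nuclear receptor activated by fatty acids and their derivatives. All mice received 2.5 ml of 3% thioglycollate, an irritant, in the peritoneal cavity, and the cells were lavaged after 3 days, allowed to adhere for 5 h and kept for 24 h in medium with 0.5% serum and antibiotics. Each genotype had 2 arrays, and age, sex, the number of mice and the way Pparg was inactivated are not given in the sources used here. No ligand, cytokine or stimulus is named for any group. The description of replicate 2 of each genotype ends in dup, and nothing says that the arrays came from separate mice or cultures, so the p-values speak of array-to-array spread alone, and that spread may be technical.

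CSF-1, also called M-CSF, is the cytokine that keeps macrophages alive and drives their differentiation from monocytes through the receptor tyrosine kinase CSF-1R. GM-CSF acts through another receptor, made of a ligand-binding α chain (Csf2ra) and a signalling β chain (Csf2rb) that works through the kinase JAK2 and the factor STAT5. Mice also carry Csf2rb2, a neighbouring copy of Csf2rb whose product serves interleukin-3 alone, whereas the β chain itself is shared by GM-CSF, interleukin-3 and interleukin-5. Csf3r encodes the receptor of G-CSF, best known from neutrophils. Adgre1 encodes F4/80, the surface antigen by which mouse macrophages are usually stained, and Lyz2 encodes lysozyme M, a bacteriolytic enzyme made in bulk by macrophages and neutrophils. The lineage factor PU.1, encoded by Spi1, binds purine-rich sites in many myeloid promoters.

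The sequences upstream of these genes are shown because they differ in whether they hold a core string of PU.1 sites. Other forms of such sites were not searched. RefSeq promoter windows of GRCm38.p6 were looked up for 7 of the genes, all but Csf1r, and found for 5. Csf2rb and Adgre1 had no entry. The 250 bases before the annotated start were searched on both strands for GAGGAA, a core of PU.1 sites (TTCCTC on the other strand), which 23.3% of 32851 windows of that length contain. Csf2ra held it 2 times in tandem, 14 and 8 bases before its start. Csf3r held it 1 time and Csf2rb2 1 time on the other strand, 167 bases before the start. The windows of Csf1 and Lyz2 did not contain these letters. A match is a string of letters and not a measured site. The windows are printed 5′ to 3′ on the gene's strand, in lower case with GAGGAA or TTCCTC in capitals, for 3 receptor genes with a match and for the ligand gene Csf1 without one; Csf2ra lies at chr19:61228419-61228668 (minus strand), Csf2rb2 at chr15:78305722-78305971 (minus), Csf3r at chr4:126024409-126024658 (plus) and Csf1 at chr3:107760470-107760719 (minus).
Csf2ra: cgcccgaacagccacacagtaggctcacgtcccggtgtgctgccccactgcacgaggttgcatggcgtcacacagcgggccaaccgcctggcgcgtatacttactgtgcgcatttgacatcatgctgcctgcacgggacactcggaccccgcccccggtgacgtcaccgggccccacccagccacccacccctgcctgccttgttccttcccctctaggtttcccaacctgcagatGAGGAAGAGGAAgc
Csf2rb2: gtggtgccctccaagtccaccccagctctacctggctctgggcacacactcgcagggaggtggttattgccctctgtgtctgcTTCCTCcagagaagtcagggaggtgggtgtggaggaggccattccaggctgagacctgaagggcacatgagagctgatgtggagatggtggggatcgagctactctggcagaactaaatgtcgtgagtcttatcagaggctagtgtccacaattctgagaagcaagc
Csf3r: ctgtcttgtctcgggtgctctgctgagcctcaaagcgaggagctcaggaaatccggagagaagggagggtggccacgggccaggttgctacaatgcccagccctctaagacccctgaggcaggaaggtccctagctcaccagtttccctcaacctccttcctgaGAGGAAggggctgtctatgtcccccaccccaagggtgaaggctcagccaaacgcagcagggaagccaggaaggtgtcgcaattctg
Csf1: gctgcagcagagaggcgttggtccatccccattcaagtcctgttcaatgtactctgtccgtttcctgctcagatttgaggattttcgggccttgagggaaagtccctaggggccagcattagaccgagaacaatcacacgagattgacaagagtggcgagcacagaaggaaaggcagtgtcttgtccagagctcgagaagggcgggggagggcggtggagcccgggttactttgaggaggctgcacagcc

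Signals are given as deposited, in intensity units. Differences are KO minus WT on the scale of log2(signal + 16), with the standard error of a limma fit over all probe sets, and adjusted p-values are limma's after Benjamini-Hochberg adjustment. A probe set passed where the adjusted p was under 0.05. The level of a probe set is not set against that of another, because probes differ in how brightly they report. Array medians lay between 136.7 and 142 units, and antisense control probe sets, which match no mouse mRNA, had medians from 103.8 to 116 and a highest value of 156.7. Another control set, 3 yeast probe sets, read lower, with medians from 24.4 to 30.2. The antisense controls are thus a strict floor, and a signal under them is not shown to be background. The Pparg probe set gave 61.1 and 73.1 in WT and 43.0 and 40.6 in KO, below the antisense median throughout, and no difference is given for it. Whether its probes lie in the deleted part is not stated, so it may check nothing. Among macrophage markers, Csf1r, Adgre1, Lyz2, Cd68, Itgam and Cd14 each had a probe set above the highest antisense control on every array.

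None of the 15 probe sets passed in the limma fit of the values as deposited. Of all 6389 kept probe sets 3.55% passed, 2.54% as lower and 1.02% as higher in KO, and of all 10649 in the fit without a filter 3.11% did. At an unadjusted p under 0.05, 5 of the 13 kept probe sets were lower in KO, where 6.62% of all kept probe sets were (9.47% in either direction): the 1 of Csf1, the dim 1 of Csf1r, that of Csf2rb, that shared by Csf2rb and Csf2rb2, and the bright 1 of Adgre1. The median difference over the 15 was -0.16, against -0.02 over all kept probe sets. Both KO arrays lay below both WT arrays at 7 of the 13 kept probe sets, where 21.1% of all kept probe sets did so, and at 0 of the 13 did both lie above, where 11.3% of all did (32.4% in either direction). These counts are not of independent units, because some genes have several probe sets and those of Csf2rb share a source sequence. The genes were also chosen with earlier results of these data known.

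**Figure D1:**
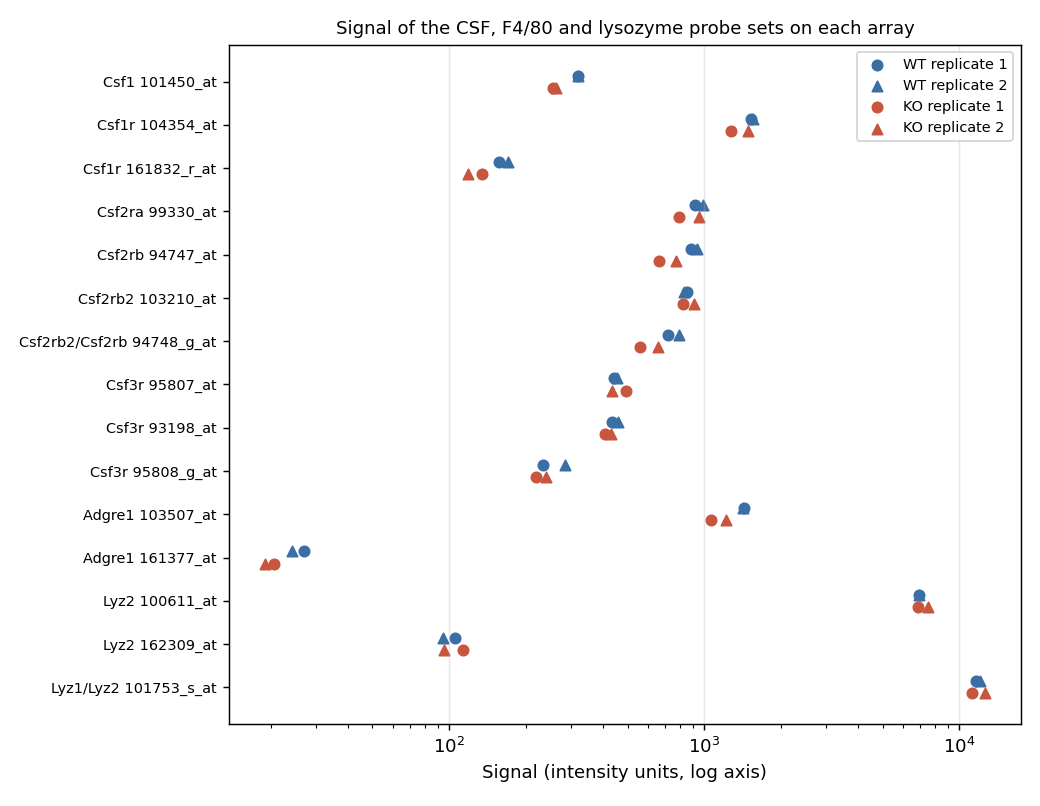
Signal of each of the 15 probe sets on the 4 arrays (horizontal log axis, intensity units; circles replicate 1, triangles replicate 2, blue WT, red KO). The KO points of Csf1 101450_at, Csf2rb 94747_at and Adgre1 103507_at sit to the left of the WT points, whereas those of Lyz2 100611_at and Csf2rb2 103210_at overlap them.

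Csf1, the ligand, had 1 probe set. It read 318.3 and 318.7 in WT and 255.9 and 261.5 in KO. The genotypes did not overlap, and the replicates of each genotype lay close together. The log2 difference was -0.28 (SE 0.12), a ratio of 1.22 on the scale of the fit, with an adjusted p of 0.31 by limma. The 95% interval of the difference ran from -0.53 to -0.04. Fibroblasts and mesothelial cells also make CSF-1, and their markers were read beside it. Of 8 such markers tested, 1 rose (1.02% of all kept probe sets did) and 7 did not pass. After quantile normalization 4 of the 8 rose, and after cyclic loess normalization 4, with 0 lower in each. There 6.56% and 6.81% of all kept probe sets passed in either direction. With median centring 1 of the 8 rose, and without moderation of the variance 0 did. All 8 had higher means in KO, with a median difference of 0.28. Over the 19 markers with values the median was 0.08, and Pdgfrb, Thy1, Postn and Krt19, below the filter, had lower means. The summed signal of the 19 markers with values was 3525 to 3583 in WT and 4167 to 4636 in KO, and 7 of the 19 lay below the antisense median on every array. Decorin (Dcn), a matrix proteoglycan, rose from 588.6 to 1002 (log2 difference 0.75, adjusted p = 6.31e-05). Leaving out WT replicate 1 gave 0.82 and leaving out WT replicate 2 gave 0.69, neither past the threshold (adjusted p = 0.29 and 0.75). With either of these arrays left out, 72 and 54 of all kept probe sets passed, against 227 with both. Among the brightest markers, Fn1 (fibronectin) read 492.8 and 558.4, Col1a2 329.2 and 430.1, and Col1a1 325.9 and 380.3, and these did not pass. Col5a2, below the filter, read 85.3 and 92.4 in WT, under the antisense median of both arrays, and 114.5 and 129.1 in KO. It passed in the fit without a filter (adjusted p = 0.018), and the call was lost without WT replicate 1 (adjusted p = 0.54), WT replicate 2 (0.21) or KO replicate 2 (0.25). The part of such cells in the Csf1 signal was not tested.

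Other cytokines of this kind were measured less well. Of 8 ligand genes on a list of them, 4 had a probe set with values and 2 passed the filter. Csf3, which encodes G-CSF, read 186.8 and 177.7 in WT and 188.7 and 180.3 in KO. Flt3l, the ligand of the receptor FLT3, read 153.8 and 133.1 in WT and 135.0 and 124.2 in KO. Both overlapped between genotypes and neither passed. Il3 and Kitl lay below the antisense median on every array.

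Csf1r, the receptor of CSF-1, had a bright and a dim probe set. The bright one (104354_at) read 1519.4 and 1549.3 in WT and 1272.5 and 1482.7 in KO. Both KO values were lower, with KO replicate 2 only slightly so, and the log2 difference was -0.16 (SE 0.16, adjusted p = 0.9997 by limma, 95% interval -0.47 to 0.15). The dim one (161832_r_at, whose suffix marks a set built with relaxed rules) read 157.3 and 169.7 in WT and 134.1 and 118.6 in KO. Its WT values exceeded the highest antisense control of their arrays and its KO values did not. The log2 difference was -0.34 (SE 0.11, adjusted p = 0.060 by limma). Without KO replicate 1, when 3.93% of all kept probe sets passed, it was -0.41 and passed (adjusted p = 0.027), and without WT replicate 2 it was -0.29 (adjusted p = 0.9999). The 2 probe sets thus had the same sign, and the interval of the dim one, from -0.55 to -0.12, overlapped that of the bright one.

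The genes whose pattern over the 4 arrays was most like that of the bright Csf1r probe set were Drg1, Eif5 and Ndufs3, among 5776 probe sets compared. Their Euclidean distances from it, on log2 values centred on each probe set's mean, were 0.0078, 0.011 and 0.012. With 4 arrays many genes share any given pattern.

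Csf2ra, the α chain of the GM-CSF receptor, read 921.7 and 984.2 in WT and 796.7 and 952.5 in KO. KO replicate 2 lay between the WT arrays, and the log2 difference was -0.13 (SE 0.15, adjusted p = 0.9997, 95% interval -0.43 to 0.18). Without KO replicate 1 the difference was 0.0001. With the median shift of probe sets of like brightness taken off, as described below, KO replicates 1 and 2 lay at -0.15 and -0.07 from the WT mean.

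Csf2rb, the common β chain, read 886.7 and 933.4 in WT and 664.9 and 773.5 in KO on probe set 94747_at. The genotypes did not overlap. The log2 difference was -0.34 (SE 0.15), a ratio of 1.26, with an adjusted p of 0.38 by limma and a 95% interval from -0.64 to -0.04. The probe set shared by Csf2rb and Csf2rb2 (94748_g_at) read 721.4 and 796.2 in WT and 557.1 and 658.6 in KO, again without overlap, with a log2 difference of -0.32 (SE 0.15, adjusted p = 0.43). The annotation gives it the same source sequence as 94747_at, so the pair is not independent. Without KO replicate 2, when 5.12% of all kept probe sets passed, both did, at -0.44 (adjusted p = 0.037) and -0.43 (adjusted p = 0.044).

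Csf2rb2, the interleukin-3 β chain, showed no such pattern on its own probe set (103210_at). It read 858.4 and 832.9 in WT and 825.3 and 910.4 in KO. The KO values lay on either side of the WT values, and the log2 difference was 0.04 (SE 0.15, adjusted p = 0.9997, 95% interval -0.27 to 0.34). The ratio of the Csf2rb to the Csf2rb2 probe set within each array removes what the array does to both. On the log2 scale it was 0.05 and 0.16 in WT and -0.31 and -0.24 in KO, a shift of -0.38. The same ratio with the shared probe set in place of the Csf2rb one shifted by -0.36, from -0.25 and -0.07 to -0.57 and -0.47. The ratio of the 2 probe sets that hold Csf2rb was 0.30 and 0.23 in WT and 0.26 and 0.23 in KO, overlapping. These ratios, 6 in all with those given for the marker genes, were chosen after the values were seen. An exact permutation test of 2 arrays against 2 cannot give a two-sided p below 0.333, which 5 of the 6 reached (0.40 after adjustment over the 6). The 6 are not independent, because each group of genes has a ratio that is the difference of the other 2. A ratio shows unequal change and does not say which gene moved.

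**Figure D2:**
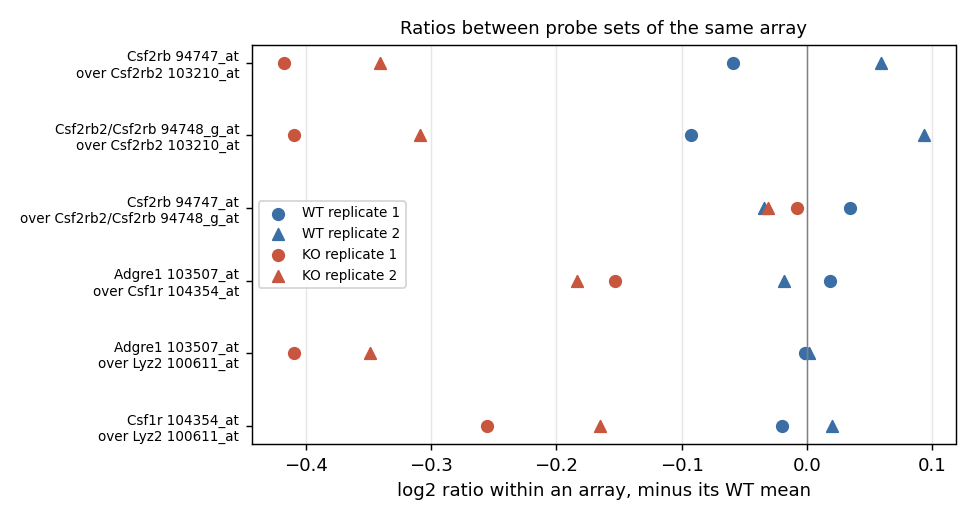
Log2 ratio between pairs of probe sets on the same array, with the WT mean of each ratio set to 0 (horizontal axis; circles replicate 1, triangles replicate 2, blue WT, red KO). Csf2rb over Csf2rb2 and Adgre1 over Lyz2 both lie 0.38 lower in KO on average, and the ratio of the 2 probe sets that hold Csf2rb overlaps between genotypes.

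Csf3r, the G-CSF receptor, had 3 probe sets and they did not share a direction. Probe set 95807_at read 442.5 and 453.2 in WT and 494.9 and 434.4 in KO, 1 array above and 1 below the WT pair (log2 difference 0.05, SE 0.14). Probe set 93198_at read 434.1 and 459.0 in WT and 407.6 and 432.2 in KO, just without overlap (-0.09, SE 0.14). Probe set 95808_g_at read 233.2 and 283.4 in WT and 218.7 and 239.9 in KO, with overlap (-0.16, SE 0.12). Their adjusted p-values ran from 0.92 to 0.9997. Neutrophils carry this receptor, and their markers were read beside it. Of 8 neutrophil markers tested, 1 rose and 1 fell (1.02% and 2.54% of all kept probe sets did), and 6 did not pass. Their median difference was -0.04. The summed signal of the 16 with values was 2185 to 2215 in WT and 2091 to 2100 in KO, lower in KO without overlap. That fall was smaller than the fall of S100a8 alone (516.9 and 542.2 in WT, 330.8 and 370.2 in KO). The rest of the list, summed, thus did not fall, and it was higher on both KO arrays than on either WT array. Of the 16, 7, Mpo (myeloperoxidase) and Ly6g among them, lay below the antisense median on every array. S100a8, a calcium-binding alarmin, fell from 529.6 to 350.5 (log2 difference -0.58, adjusted p = 0.0015). Leaving out WT replicate 1 gave -0.61 and leaving out WT replicate 2 gave -0.54, neither past the threshold (adjusted p = 0.41 and 0.75). Mmp8, neutrophil collagenase, rose from 172.7 to 265.1 (0.58, adjusted p = 3.45e-05). Without WT replicate 2 it was 0.47 and did not pass (adjusted p = 0.46). Camp, Padi4 and Prtn3 did not pass. The part of neutrophils in the Csf3r signal was not tested.

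Adgre1, which encodes F4/80, read 1429.2 and 1421.2 in WT and 1062.8 and 1212.8 in KO on its bright probe set (103507_at). The WT arrays were nearly equal and both KO arrays lay below them. The log2 difference was -0.32 (SE 0.16), a ratio of 1.25, with an adjusted p of 0.46 by limma and a 95% interval from -0.63 to -0.01. Without KO replicate 2 it was -0.42 and passed (adjusted p = 0.0496). The second probe set (161377_at) read 27.0 and 24.1 in WT and 20.6 and 19.0 in KO, below the lowest antisense control of each array, and no ratio is given for it.

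Lyz2, lysozyme M, was level between genotypes to within the spread of its arrays. Its bright probe set (100611_at) read 6966.4 and 6912.6 in WT and 6871.6 and 7518.7 in KO, with the KO arrays on either side of the WT arrays. The log2 difference was 0.05 (SE 0.14, 95% interval -0.22 to 0.33). The probe set shared with Lyz1, the closely similar lysozyme P gene, read 11560.7 and 11993.1 in WT and 11245.3 and 12535.8 in KO (0.01, SE 0.13). A dim further probe set (162309_at) read 105.4 and 94.2 in WT and 113.3 and 95.5 in KO (0.05, SE 0.11). The patterns most like that of the bright Lyz2 probe set were those of Eif4e2, Mapk6 and Nfyc, at distances of 0.0064, 0.0079 and 0.010 over the same 4 arrays, among 5777 compared.

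Within each array, Adgre1 was lower relative to Lyz2 in KO. The log2 ratio of their bright probe sets was -2.29 and -2.28 in WT and -2.69 and -2.63 in KO, a shift of -0.38. Csf1r relative to Lyz2 went from -2.20 and -2.16 to -2.43 and -2.34, a shift of -0.21, and Adgre1 relative to Csf1r from -0.09 and -0.12 to -0.26 and -0.29, a shift of -0.17. None of these 3 ratios overlapped between genotypes. Adgre1 over Csf1r is the difference between the ratios to Lyz2, so it adds no separate result. How often ratios of other probe sets lack overlap was not counted. In RNA from a culture, fewer cells of a type and less RNA of a gene per cell cannot be told apart.

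The array-to-array pattern of several of these genes followed that of other probe sets of the same brightness. In the brightest decile of kept probe sets, which holds the bright Csf1r, Adgre1 and Lyz2 probe sets, KO replicate 1 lay a median of 0.10 below the WT mean on the log2 scale and KO replicate 2 a median of 0.10 above it. In the dimmest decile these medians were -0.02 and -0.05. Adgre1 lay 0.42 below the WT mean on KO replicate 1 and 0.23 below it on KO replicate 2; with the decile medians taken off, these became -0.32 and -0.33. For Csf2rb, in the ninth decile, -0.44 and -0.23 became -0.34 and -0.30, and for the bright Csf1r probe set -0.27 and -0.05 became -0.16 and -0.15. Csf1, in the sixth decile, went from -0.30 and -0.27 to -0.22 and -0.28. For Lyz2, -0.01 and 0.12 became 0.09 and 0.01. For Csf3r 95807_at, 0.14 and -0.04 became 0.24 and -0.10. With the decile medians taken off, the 2 KO arrays lay closer together at 11 of the 13 kept probe sets and farther apart at 2, those of Csf1 and Csf3r 95807_at. Taking off a shift typical of a decile brings most of its probe sets closer by construction. The share over all kept probe sets was not counted, so this count says nothing particular about these genes.

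**Figure D3:**
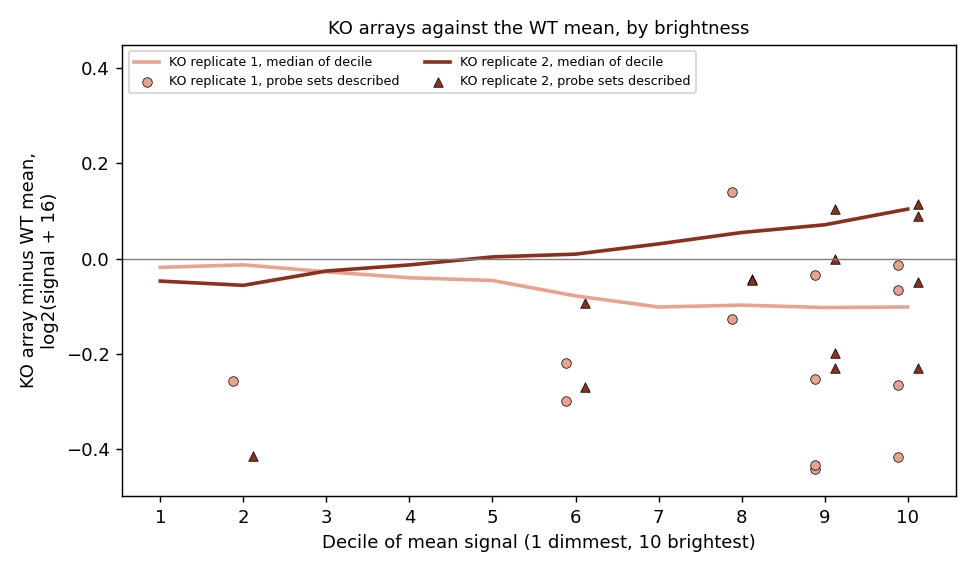
Each KO array minus the WT mean on the log2(signal + 16) scale (vertical axis) by decile of mean signal (horizontal axis, 1 dimmest); lines are medians of all kept probe sets in a decile and points are the 13 kept probe sets described here. The lines part from near 0 in the dim deciles to -0.10 and 0.10 in the brightest, and the points of Adgre1 and Csf2rb lie below both lines.

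Calls were made after normalizations that act on the arrays across their whole range of brightness. After quantile normalization 4 of the 15 probe sets passed, where 6.56% of all kept probe sets did: Adgre1 (log2 difference -0.26, adjusted p = 0.029), Csf2rb (-0.29, adjusted p = 0.024) and the probe set of Csf2rb and Csf2rb2 (-0.28, adjusted p = 0.049) were lower in KO, and the probe set of Lyz1 and Lyz2 was higher (0.15, adjusted p = 0.014). After cyclic loess normalization, added after seeing the data, 3 passed, where 6.81% of all did: Adgre1 (-0.32, adjusted p = 0.0047), Csf2rb (-0.32, adjusted p = 0.0098) and the probe set of Csf2rb and Csf2rb2 (-0.29, adjusted p = 0.027). The Lyz1 and Lyz2 probe set then read -0.01, so its call rested on the quantile method. With no moderation of the variance none of the 15 passed, at adjusted p from 0.77 upward, and none did with either WT array left out.

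**Figure D4:**
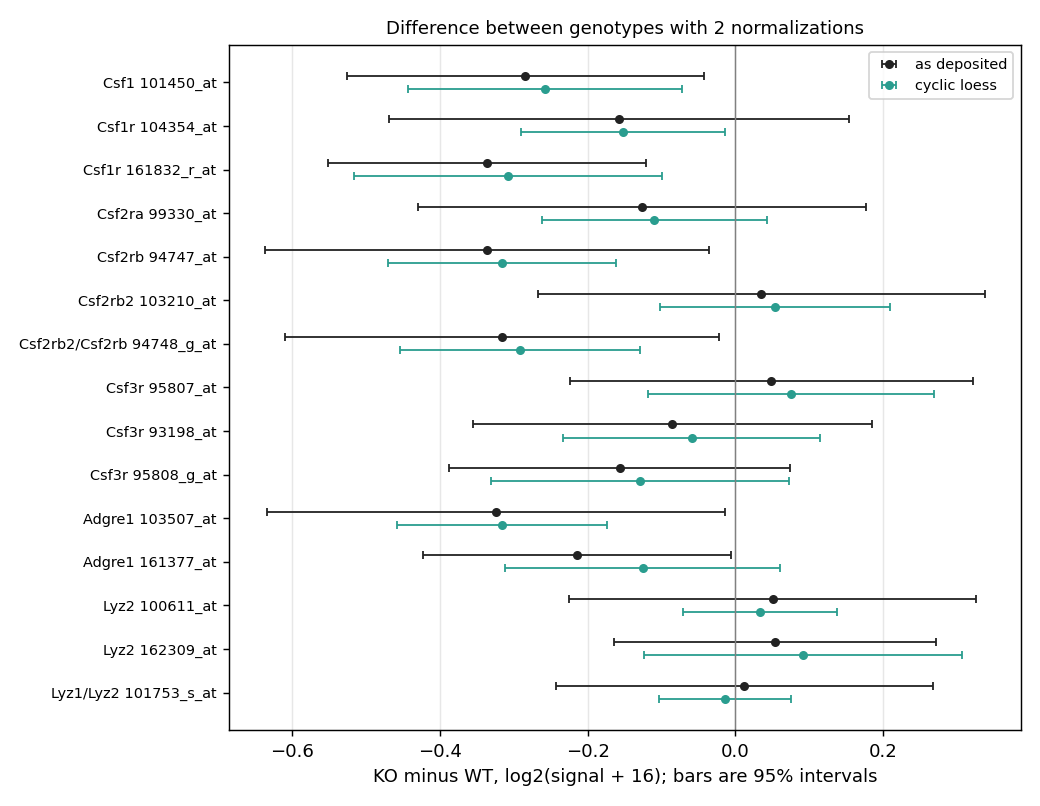
KO minus WT difference of the 15 probe sets on the log2(signal + 16) scale (horizontal axis), with 95% intervals as bars, for values as deposited (black) and after cyclic loess normalization (green). Points move little between the normalizations, from -0.34 to -0.32 for Csf2rb, while the bars of bright probe sets become shorter.

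Genes that act below these receptors differed in a few cases. Of 24 tested members of a list of CSF receptor signalling genes, 2 fell, 0 rose and 22 did not pass. Their median difference was -0.09, against -0.02 over all kept probe sets, of which 2.54% fell and 1.02% rose. Jak2, the kinase bound to the β chain, read 177.6 and 181.4 in WT and 104.0 and 129.7 in KO. Both KO arrays were well below the WT pair, and KO replicate 1 lay under the antisense median of its array. The log2 difference was -0.56 (SE 0.11, adjusted p = 2.63e-05), and it passed without each array in turn, at adjusted p up to 0.029. Ptpn6, the phosphatase SHP-1 that dampens CSF receptor signals, read 892.4 and 828.1 in WT and 551.8 and 665.7 in KO. It fell by 0.49 on the log2 scale (adjusted p = 0.033). The call was lost without WT replicate 1 (-0.44, adjusted p = 0.9997), WT replicate 2 (-0.55, adjusted p = 0.9999) or KO replicate 1 (-0.36, adjusted p = 0.17), and with median centring (-0.47, adjusted p = 0.11). Tyrobp, the adaptor DAP12, and the 14-3-3 genes Ywhag and Ywhaz were the brightest members and did not pass.

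Among 15 tested target and feedback genes of these receptors, 2 fell, 0 rose and 13 did not pass. Their median difference was -0.09, and 2.54% of all kept probe sets fell. The 2 genes that fell encode inhibitors of JAK kinases, which other cytokines induce as well. Socs1 read 461.6 and 494.5 in WT and 175.5 and 222.9 in KO (log2 difference -1.21, SE 0.13, adjusted p = 1.05e-18), past the threshold without each array in turn. Socs3 read 379.7 and 465.0 in WT and 265.0 and 313.9 in KO (-0.52, adjusted p = 0.0033). The call was lost without WT replicate 1 (-0.66, adjusted p = 0.14), WT replicate 2 (-0.38, adjusted p = 0.9999) or KO replicate 1 (-0.40, adjusted p = 0.053). Cish, a classical STAT5 target, read 252.5 in WT and 218.9 in KO on average and did not pass. The kinase gene Pim1 (1204 and 1003), Id2 (1611 and 1623) and Mcl1 (705.9 and 729.0) did not pass either. Myc read 35.7 and 35.8 in WT and 46.8 and 61.2 in KO, below the antisense median of every array, and no difference is given for it.

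Of 9 tested transcription factors of the macrophage lineage, 1 fell (2.54% of all kept probe sets did) and 8 did not pass. Their median was -0.08. Irf8, which directs monocyte development and responds to interferon γ, fell from 2304.8 and 2607.4 to 1142.6 and 1344.7 (log2 difference -0.97, SE 0.16, adjusted p = 1.24e-07). Leaving out WT replicate 1 gave -1.06 and leaving out WT replicate 2 gave -0.89, neither past the threshold (adjusted p = 0.079 and 0.31). Spi1, encoding PU.1, read 1054.6 and 1212.0 in WT and 987.4 and 1162.8 in KO, overlapping (-0.08, SE 0.16). Cebpa read 1761.1 and 1833.4 in WT and 1719.6 and 2028.4 in KO, and Cebpb 1694.9 and 1815.7 in WT and 1234.6 and 1594.5 in KO (-0.32, adjusted p = 0.50).

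Other macrophage markers were mostly level. Of 24 tested, 1 rose and 2 fell (1.02% and 2.54% of all kept probe sets did), and 21 did not pass. Their median was -0.02. Cathepsin D (Ctsd, 9422 in WT and 9734 in KO), galectin 3 (Lgals3, 6566 and 7305) and Cd68 (6384 and 6583) were the brightest and did not pass. Itgam, the CD11b integrin chain, read 472.5 and 462.3, and Cd14, the LPS co-receptor, 3239 and 3724. Mertk, a receptor for apoptotic cells, fell from 225.6 and 233.4 to 134.7 and 150.5 (log2 difference -0.63, SE 0.11, adjusted p = 1.37e-06), past the threshold without each array in turn. Mrc1, the mannose receptor, rose from 93.9, below the antisense median of both WT arrays, to 189.8 (adjusted p = 1.04e-13). Ly6e fell by 0.45 on the log2 scale (adjusted p = 0.044). The call was lost without WT replicate 1 (-0.52, adjusted p = 0.9997) or WT replicate 2 (-0.37, adjusted p = 0.9999), with median centring (-0.42, adjusted p = 0.15) and without a filter (-0.45, adjusted p = 0.20).

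Of 9 tested receptors for other haematopoietic cytokines, 0 passed, and the median was 0.09. The brightest were Il4ra, the interleukin-4 receptor α chain (434.9 and 449.5 in WT, 371.3 and 416.8 in KO), Ifngr2 and Ifngr1. Markers of other cells that a lavage can hold were also read. B cell markers, of which Blnk, Ighm and Cd22 were brightest, had 0 of 8 past the threshold. T and NK cell markers (Zap70, Cd4 and Cd3e) had 0 of 3. Mast cell and basophil markers (Tpsb2 and Cma1) had 0 of 2 and eosinophil markers (Prg2) 0 of 1. Dendritic cell markers had 1 of 5, Cd24a, which rose (log2 difference 0.81, adjusted p = 2.91e-08), while Itgax, Batf3 and Flt3 did not pass. Of all kept probe sets 1.02% rose. Without WT replicate 2 the Cd24a difference was 0.75 and did not pass (adjusted p = 0.068). The summed signal of each of these 5 lists overlapped between genotypes.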

How the data were processed

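RNA of 2 WT and 2 KO samples was measured, 1 single-colour Affymetrix array each. The sample titles give genotype and replicate number. The authors deposited linear intensity values, 1 for each probe set of an array; the probe summary, background correction and scaling are not given in the sources used here. The table has 12488 rows, of which 1780 were blank on every array, and 59 control rows with values were set aside. The platform annotation gave 1 gene for 9389 of the remaining 10649 probe sets, several for 341 and none for 919.

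Array medians on the log2(signal + 16) scale differed by less than 0.1, so no rescaling was applied. The filter kept probe sets whose mean exceeded the 40th percentile, near a signal of 111.0. The two-sided comparison of KO with WT ran over all kept probe sets with lmFit and trended eBayes (limma 3.58.1, R 4.3.3). Probe sets below the filter were taken from the same fit without it. The fit pooled the spread fully: every probe set took that of others of its brightness, and small p-values rest on that assumption. The code was tested on simulated data: with 200 of 6389 probe sets changed, it recovered 100% of changes of 1 and 94% of changes of 0.5 on the log2 scale, with 5 false calls among 199 and 0 calls when nothing was changed; the simulation shares the pooled spread.

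The members and the 13 gene lists (231 entries, 179 with values) were chosen with earlier results of these data known. Every probe set of a member is described. Of each list, every gene past the threshold (up to 6) and up to 3 others with the highest signal are named, each by its brightest probe set; Il3, Kitl, Cish, Itgam, Cd14, Mpo, Ly6g and Pparg are named beside these. Csf2rb2 lies next to Csf2rb in the RefSeq table of GRCm38.p6, which served for names only; promoter windows are RefSeq's. No build is named for the arrays. Alternatives were quantile normalization, median centring, no filter, pseudocounts of 1 and 64, eBayes without trend, no moderation, a block for the replicate number, and leaving out each array (its lone partner is then assumed to vary like the other genotype), and, added after seeing the data, cyclic loess normalization. The number of arrays limits the precision. Python 3.11.15 with matplotlib 3.10.9 drew the figures.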

Additional observations from a re-analysis of the deposited data

How the results depend on the processing

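Against 0 of 15 probe sets of the 8 genes past the threshold with the values as deposited, 4 passed after quantile normalization (1 higher in KO), 3 after cyclic loess normalization, 5 with the replicate number as a block, and from 0 to 3 when each array was left out. Over all kept probe sets 227 passed, against 419 after quantile normalization (170 higher, 249 lower), 435 after cyclic loess (159 higher, 276 lower), 480 with the replicate block, 0 without moderation of the variance (388 at an unadjusted p under 0.05) and from 54 to 327 when each array was left out; the cause was not tested. The 5 probe sets past the threshold with the block were those of Csf1 (adjusted p = 0.033), Adgre1 (0.033), the dim one of Csf1r (0.0053), Csf2rb (0.017) and that of Csf2rb and Csf2rb2 (0.027), all lower in KO by limma. The 2 genotypes share replicate numbers in the titles only, and nothing says that a number marks a shared mouse or day. With 2 arrays a genotype the deviations of same-numbered arrays correlated at 0.42. Replicate 2 minus replicate 1 rose with brightness in both genotypes. From the dimmest to the brightest decile its median went from -0.03 to 0.07 in WT and from -0.01 to 0.21 in KO. Whether the correlation holds more than this shared trend was not tested.

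Over the 13 alternatives, 170 of 195 values of single probe sets kept their direction and their side of the threshold, 16 came to pass it and 9 changed sign, none of the 9 past the threshold. Those 9 were Lyz1 and Lyz2 (-0.0145 without WT replicate 1, -0.0663 without KO replicate 2, -0.0145 with cyclic loess), Lyz2 162309_at (-0.0159 without WT replicate 2, -0.0529 without KO replicate 1), Lyz2 100611_at (-0.0141) and Csf2rb2 (-0.0343) without KO replicate 2, and Csf3r 95807_at (-0.0424) and Csf2ra (0.0001) without KO replicate 1. The differences of Csf1 (-0.30 to -0.25), Csf2rb (-0.44 to -0.23), bright Adgre1 (-0.42 to -0.23), bright Csf1r (-0.27 to -0.05) and dim Csf1r (-0.41 to -0.26) were negative under all 13. With each array left out, the values ran from -0.0663 to 0.0902 for Lyz1 and Lyz2, -0.0529 to 0.1608 for Lyz2 162309_at, -0.0141 to 0.1154 for Lyz2 100611_at, -0.0343 to 0.1047 for Csf2rb2, -0.0424 to 0.1395 for Csf3r 95807_at and -0.2529 to 0.0001 for Csf2ra. Signals near or below the antisense controls, as for the dim Adgre1 and Lyz2 probe sets, limit what those probe sets can show.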
